A study of Mus musculus with 18 samples.

Results

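The genes described here are 9 genes of MHC class II antigen presentation: the surface chains H2-Aa, H2-Ab1 and H2-Eb1, the peptide editors H2-DMa, H2-DMb2, H2-Oa and H2-Ob, the invariant chain Cd74 and the coactivator Ciita. Each was read from a probe set that the array annotation gives 1 gene symbol, and where a gene had several such probe sets the brightest on average was taken. All 9 genes were found among 18194 named genes, and all 9 were among the 11897 genes bright enough to be tested. They were measured in mouse B-cell lymphomas of Eµ-myc transgenic animals, in which the Myc oncogene is driven by an immunoglobulin enhancer. All samples, controls included, came from Suv39h1-null primary lymphomas on a C57/Bl6 background that carried retroviral Bcl2 and retroviral Suv39h1-ERT2, a fusion of the histone methyltransferase that 4-hydroxytamoxifen (4-OHT) switches on. The 3 lymphomas, numbered 4146, 4936 and 5043, were each taken through 6 conditions in culture. These were untreated cells, cells given Adriamycin (ADR) for 5 days, cells given ADR with 4-OHT for 5 days, and outgrowth populations kept for 14 more days without drug. The ADR outgrowth was not sorted, and the outgrowth after ADR with 4-OHT was sorted by flow cytometry into small and big cells. No group received 4-OHT alone, so the effect of 4-OHT itself cannot be told apart from that of the activated fusion protein. Each group had 3 arrays, 1 per lymphoma, except the ADR outgrowth with 2, because the table holds no values for lymphoma 5043 there.

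MHC class II molecules are pairs of an alpha and a beta chain that carry peptides from endosomes to the cell surface, where CD4 T cells read them. Cd74 holds the new chains and guides them to endosomes, H2-DM removes the Cd74 remnant and lets peptides load, and H2-O, found mainly in B cells, restrains H2-DM. In B cells the genes are switched on together by Ciita, which docks on the RFX, CREB and NF-Y proteins bound at short promoter elements called the X and Y boxes.

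The promoter elements are shown for the members whose RefSeq promoter entry (GRCm38.p6) held a Y box, since the data ask how far these genes move together. Capitals mark the Y box letters TGATTGG and the X box core letters GCAAC, searched on both strands of the 250 bases before the listed start. The stretches are 70 bases long, 5′ to 3′ on the strand of the gene.
H2-Aa: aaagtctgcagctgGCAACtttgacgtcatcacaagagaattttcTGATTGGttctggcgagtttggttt
H2-Eb1: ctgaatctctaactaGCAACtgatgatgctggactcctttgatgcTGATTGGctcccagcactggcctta
H2-Oa: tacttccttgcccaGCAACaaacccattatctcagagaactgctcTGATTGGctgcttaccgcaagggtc
H2-Ob: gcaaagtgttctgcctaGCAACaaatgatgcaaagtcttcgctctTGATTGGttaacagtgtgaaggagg
H2-DMb2: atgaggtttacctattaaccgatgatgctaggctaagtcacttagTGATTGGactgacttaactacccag
They lie at chr17:34287849-34287918 (minus strand) for H2-Aa and, on the plus strand, at chr17:34305761-34305830 for H2-Eb1, chr17:34092289-34092358 for H2-Oa, chr17:34238801-34238870 for H2-Ob and chr17:34145112-34145181 for H2-DMb2. The Y box was in 5 of the 6 members with an entry, against 7.23% of 32851 promoters, and was not in the windows of H2-DMa. The core GCAAC by itself was common, at 29.88% of promoters. GCAAC followed by TGATTGG after 10 to 30 bases stood in 4 members, with 26 bases between in H2-Aa, 25 in H2-Eb1, 26 in H2-Oa and 23 in H2-Ob, and in 0.18% of all promoters. H2-Ab1, Cd74 and Ciita are named only. These matches describe letters and were not tested as binding sites.

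Values are log2 signals after RMA, a method that corrects and normalises arrays, and offsets between the lymphomas had been removed before deposit, so only differences between conditions within a lymphoma can be read. Statements that groups do or do not overlap set arrays of all lymphomas side by side after that removal and do not use the pairing. They are descriptions, and lymphoma 5043 lacks the ADR outgrowth among the arrays behind its median. On 3 arrays the profile stood apart from that of the other 14 on the main axis of variation over all genes, namely ADR 5 d of 4936 and the small and big outgrowths of 5043, with scores of 67.9, 46.1 and 54.9 against at most 11.6 elsewhere. Their Xist signals lay 5.70, 5.80 and 5.99 above the median of their lymphoma. The array labelled ADR+4-OHT 5 d of 4146 deviated by -3.49 in Xist. Smaller Xist deviations, 2.72 and 1.58, were seen on the big outgrowths of 4936 and 4146, and those arrays were kept in all fits that leave out arrays in doubt. Whether the 3 arrays apart and ADR+4-OHT 5 d of 4146 hold the samples on their labels is in doubt. The main member differences that rest on these 4 arrays are given with and without them. Values of markers and of list genes are over all arrays unless said otherwise. Of 10 B-cell markers with a probe set, 7 were above the median of all values (4.86) on every array, Cd79a and Cd79b among them, and Cr2 was below it on all. Macrophage markers were also seen, with a mean over 11 genes of 4.09 to 4.61 in untreated cells and 5.12 to 7.40 after ADR. Without the 3 arrays apart the range after ADR was 5.12 to 5.13. The mean was 5.23 to 6.08 after ADR+4-OHT, 4.76 to 5.35 in the ADR outgrowth, 4.13 to 4.69 in the small and 4.89 to 5.5 in the big outgrowth. Mrc1, C1qa, C1qb and C1qc stayed below 4.86 throughout. In such bulk samples, fewer cells of a type and less RNA per cell cannot be told apart.

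No member passed an adjusted p of 0.05 in any of 12 comparisons (limma, lymphoma as a block, Benjamini-Hochberg over 11897 genes). The members did not form a single pattern. The surface chains H2-Aa and H2-Ab1 and the editors H2-DMa and H2-DMb2 were lowest on average after ADR+4-OHT and higher in both sorted outgrowths. Without the 4 arrays the groups hold different lymphomas, so fitted differences from untreated are given. H2-Aa and H2-Ab1 were then lowest in the ADR outgrowth, at -0.26 and -1.05, against 0.06 and -0.97 after ADR+4-OHT. H2-DMa after ADR+4-OHT was then at 0 from untreated. H2-Oa and H2-Ob were low on average after either treatment. Cd74 had its lowest group mean in untreated cells, at 7.89, and means of 9.91 after ADR, 9.93 after ADR+4-OHT and 9.89 in the big outgrowth. Without the 4 arrays the fitted Cd74 differences from untreated were 0.56 after ADR, 2.95 after ADR+4-OHT and 0.78 in the big outgrowth. Over all arrays the order of the 6 group means differed between genes, and for 7 of the 9 genes every neighbouring pair in that order overlapped. The exceptions were H2-Eb1, where ADR 5 d lay below the big outgrowth, and H2-Ob, where ADR+4-OHT 5 d lay below the big outgrowth.

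**Figure D1:**
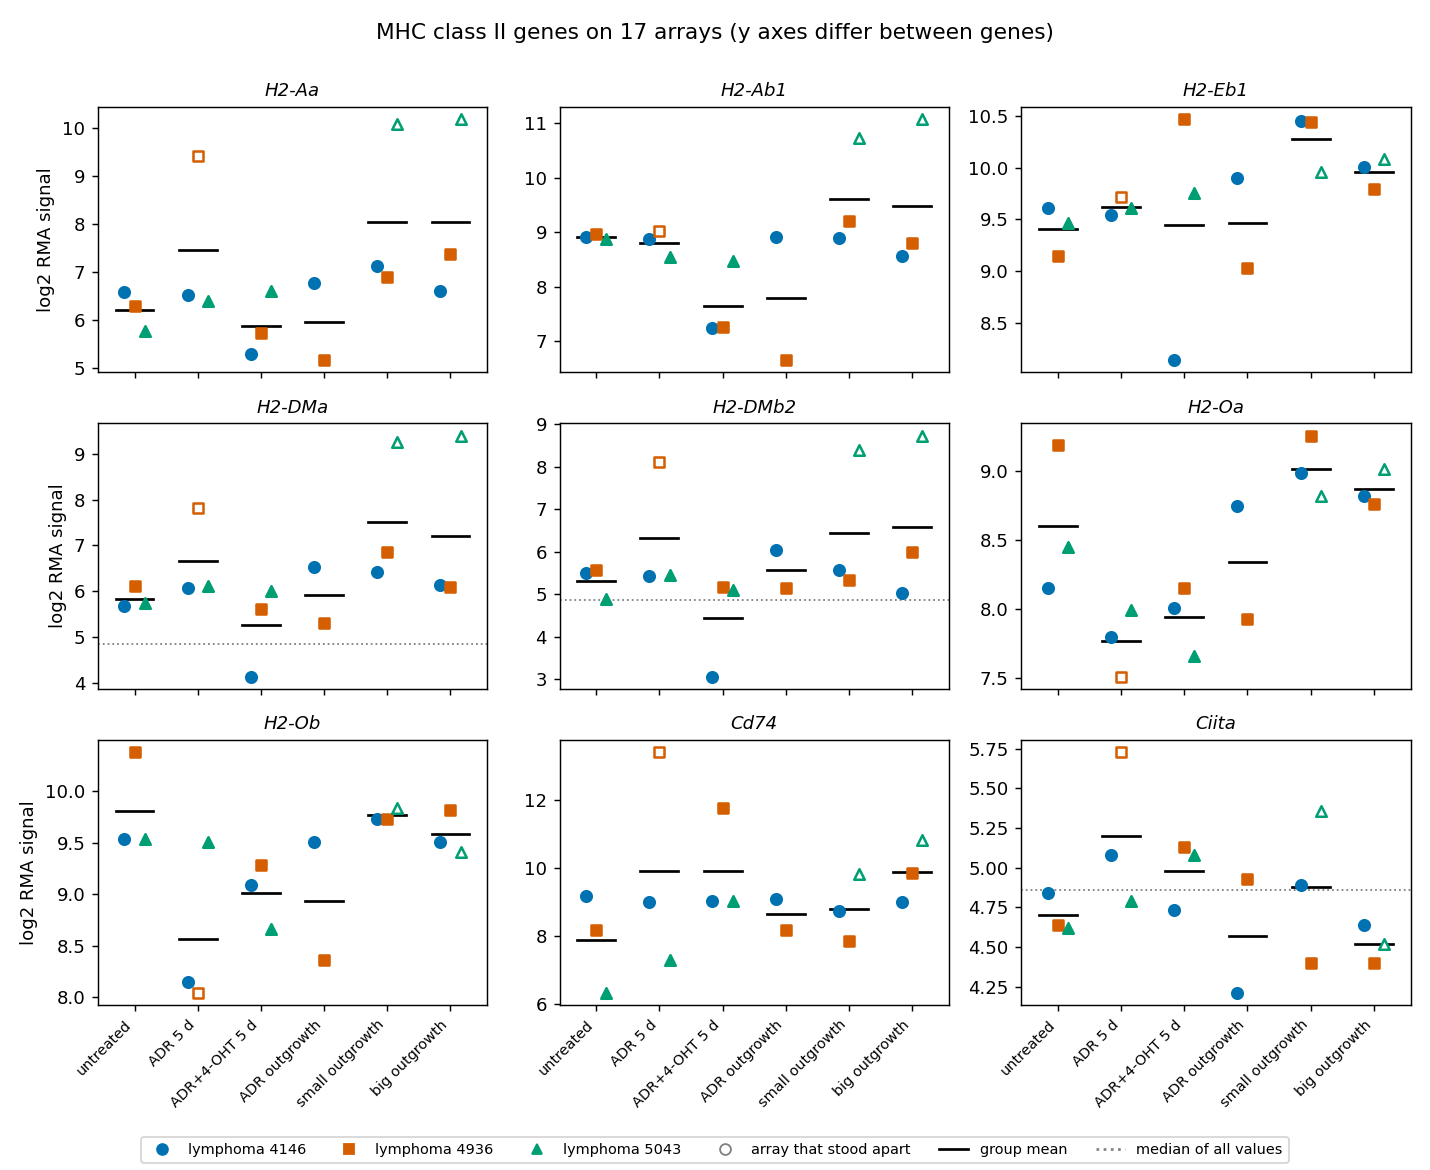
Log2 RMA signal of each gene (y axis, own scale per gene) in the 6 groups (x axis), with 1 point per array, colour and marker shape for the lymphoma, open points for the 3 arrays that stood apart, black bars for group means and, for the 3 dimmest genes, a dotted line at the median of all values. H2-Aa, H2-DMa and H2-DMb2 are high on the open points, and Cd74 spans 6.33 to 13.42.

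Among the surface chains, H2-Ab1, the beta chain of the I-A molecule, had the smallest adjusted p. In the order 4146, 4936 and 5043 it measured 8.92, 8.96 and 8.88 in untreated cells, 8.87, 9.03 and 8.54 after ADR, and 7.24, 7.25 and 8.47 after ADR+4-OHT. It measured 8.90, 9.21 and 10.74 in the small outgrowth and 8.56, 8.81 and 11.08 in the big outgrowth. Every ADR+4-OHT array lay below every untreated array and below every array of both sorted outgrowths. The fitted difference was -1.27 (SE 0.61) between ADR+4-OHT and untreated, lower in 3 of 3 lymphomas, with an adjusted p of 0.283 by limma. From ADR+4-OHT to the small outgrowth it was 1.96 (SE 0.61, limma adjusted p = 0.0818), and to the big outgrowth 1.83 (SE 0.61, limma adjusted p = 0.0995), each higher in 3 of 3. Without the 3 arrays apart the small outgrowth difference was 1.53, and without the 4 arrays 1.18. The big outgrowth difference was then 1.16 and 0.82. The ADR outgrowth was split, at 8.92 in 4146 and 6.65 in 4936, the lowest H2-Ab1 value of all.

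H2-Aa, the alpha partner of H2-Ab1, was dimmer and more uneven. It measured 6.58, 6.28 and 5.76 untreated, 6.52, 9.42 and 6.40 after ADR, and 5.28, 5.73 and 6.59 after ADR+4-OHT. In the small outgrowth it was 7.11, 6.90 and 10.08, in the big outgrowth 6.60, 7.36 and 10.18, and in the ADR outgrowth 6.76 and 5.16. The 3 values above 9 came from the 3 arrays that stood apart. Both sorted outgrowths lay above the untreated and the ADR+4-OHT arrays without overlap. The difference of the small outgrowth from ADR+4-OHT was 2.17 (SE 1.02, limma adjusted p = 0.23) with all arrays, 1.19 without the 3 arrays apart and 0.72 without the 4.

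H2-Eb1, the beta chain of the I-E molecule, had the smallest range of the surface chains. It measured 9.61, 9.15 and 9.47 untreated, 9.54, 9.72 and 9.61 after ADR, and 10.45, 10.44 and 9.96 in the small outgrowth. After ADR+4-OHT it was 8.14, 10.47 and 9.76, which holds both its lowest and its highest value. The small outgrowth lay above every untreated array, with a difference of 0.87 (SE 0.46, limma adjusted p = 0.641). Its difference from ADR+4-OHT was 2.31 in 4146, -0.02 in 4936 and 0.21 in 5043, so it rested on the ADR+4-OHT array of 4146. Without the 4 arrays the fitted value was 0.19. For the big outgrowth against ADR+4-OHT it turned from 0.51 to -0.35 without those 4 arrays. C57BL/6 mice are known to lack I-E at the surface because of a defect in H2-Ea, so H2-Eb1 signal here is of the transcript only.

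H2-DMa and H2-DMb2, the chains of the peptide-loading editor, followed H2-Aa with r = 0.95 and 0.94 over all arrays. Without the 4 arrays in doubt these were 0.74 and 0.63. H2-DMa measured 5.67, 6.12 and 5.74 untreated, 6.08, 7.81 and 6.11 after ADR, 4.14, 5.62 and 6.01 after ADR+4-OHT, 6.43, 6.85 and 9.26 in the small and 6.13, 6.09 and 9.40 in the big outgrowth. H2-DMb2 measured 5.49, 5.57 and 4.88 untreated, 5.43, 8.10 and 5.46 after ADR, 3.07, 5.17 and 5.11 after ADR+4-OHT, 5.56, 5.34 and 8.39 in the small and 5.02, 5.99 and 8.73 in the big outgrowth. High values again came from the 3 arrays apart, and the lowest value of each gene, the only one under 4.86, from ADR+4-OHT 5 d of 4146. Against ADR+4-OHT, the small outgrowth differed by 2.25 (SE 0.81, limma adjusted p = 0.124) for H2-DMa and by 1.98 (SE 0.97, limma adjusted p = 0.243) for H2-DMb2. Each was higher in 3 of 3 lymphomas without overlap. Without the 3 arrays apart the values were 1.49 and 1.03, and without the 4 arrays 0.82 and 0.18. Probe sets for H2-DMb2 can share sequence with the near-identical H2-DMb1, for which no probe set with 1 symbol was found.

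H2-Oa and H2-Ob, the chains that restrain H2-DM, had lower group means after either treatment than in untreated cells or in the sorted outgrowths. H2-Oa measured 8.15, 9.19 and 8.45 untreated, 7.80, 7.51 and 7.99 after ADR, 8.01, 8.15 and 7.66 after ADR+4-OHT, 8.99, 9.26 and 8.82 in the small and 8.82, 8.76 and 9.02 in the big outgrowth. All arrays after ADR lay below all untreated arrays, and all arrays of both sorted outgrowths lay above all treated ones. H2-Oa gave the smallest adjusted p of any member, with a difference of 1.08 (SE 0.29, limma adjusted p = 0.0518) between the small outgrowth and ADR+4-OHT, higher in 3 of 3 lymphomas at 0.98, 1.11 and 1.16. Over 32 alternative settings this difference kept between 0.94 and 1.18 while its limma adjusted p ran from 0.00684 to 0.297. It was 1.12 without the 3 arrays apart and 1.17 without the 4. The big outgrowth difference was 0.93 (SE 0.29, limma adjusted p = 0.0845).

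H2-Ob measured 9.53, 10.38 and 9.53 untreated, 8.15, 8.04 and 9.51 after ADR, and 9.09, 9.28 and 8.66 after ADR+4-OHT. In the sorted outgrowths it was 9.73, 9.73 and 9.84 in small and 9.51, 9.82 and 9.41 in big cells, and in the ADR outgrowth 9.51 and 8.36. After ADR alone, H2-Ob differed from untreated by -1.25 (SE 0.41, limma adjusted p = 0.337) and H2-Oa by -0.83 (SE 0.29, limma adjusted p = 0.359), both lower in 3 of 3. The H2-Ob difference was -1.39 in 4146, -2.35 in 4936, from an array that stood apart, and only -0.03 in 5043. Without the 3 arrays apart the values were -0.95 for H2-Ob (limma, unadjusted p = 0.0789) and -0.64 for H2-Oa (limma, unadjusted p = 0.0882). The actin 3′ minus 5′ signal, a measure of RNA quality, was 0.56 to 1.17 after ADR and 1.39 to 1.65 in untreated cells, and its part in these differences was not tested.

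Cd74 had the widest range of the 9 genes. It measured 9.17, 8.18 and 6.33 untreated, 9.0, 13.42 and 7.30 after ADR, and 9.03, 11.76 and 9.02 after ADR+4-OHT. In the small outgrowth it was 8.73, 7.85 and 9.84, in the big outgrowth 9.0, 9.85 and 10.82, and in the ADR outgrowth 9.10 and 8.18. In 4146 it stayed between 8.73 and 9.17 on all 6 arrays, while 4936 and 5043 carried the differences. From untreated to ADR+4-OHT it changed by -0.14 in 4146, 3.58 in 4936 and 2.69 in 5043, with a fitted difference of 2.04 (SE 1.28, limma adjusted p = 0.426). Without the 4 arrays in doubt, Cd74 passed the test. It was then higher after ADR+4-OHT than untreated by 2.95 (SE 0.44, limma adjusted p = 0.00964, with 6.85% of 11589 genes called) and lower in the small outgrowth than after ADR+4-OHT by 3.32 on the log2 scale (SE 0.52, limma adjusted p = 0.0294, with 2.75% called). Those fits leave out the ADR+4-OHT array of the lymphoma in which Cd74 was flat, and the small outgrowth comparison then holds 1 lymphoma with both conditions. Lyz2, a macrophage gene, was measured beside it over all arrays, rising by 5.87 (SE 1.15, limma adjusted p = 0.0272) from untreated to ADR+4-OHT and falling by as much to the small outgrowth (limma adjusted p = 0.0218). Both genes had their highest value on ADR 5 d of 4936, Lyz2 at 14.49 and Cd74 at 13.42. On ADR+4-OHT 5 d of 4146 Lyz2 was at 10.17, where Cd74 was at 9.03 against 9.17 untreated. On the small outgrowth of 5043 Lyz2 was at its lowest value, 2.26, where Cd74 was at 9.84. These arrays are all among the 4 in doubt. Lyz2 was chosen after its values were seen. From untreated to ADR+4-OHT it was the only 1 of 7 tested macrophage markers that passed, and the 7 differences ran from 0.01 to 5.87. The part of macrophage RNA in the Cd74 values was not tested.

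Ciita was dim, under 4.86 on 10 of 17 arrays, so its small differences sit near background. It measured 4.84, 4.64 and 4.62 untreated, 5.08, 5.73 and 4.79 after ADR, 4.73, 5.13 and 5.08 after ADR+4-OHT, 4.89, 4.40 and 5.36 in the small and 4.64, 4.40 and 4.52 in the big outgrowth. The big outgrowth lay below every ADR+4-OHT array, with a difference of -0.46 (SE 0.29, limma adjusted p = 0.356), while 6 of the genes it controls were higher there in every lymphoma. The other moderately bright Ciita probe set followed the one used with r = 0.54 over 17 arrays and the dimmest with r = -0.35. For H2-Ab1 the other probe sets followed the one used at r = 0.95 and 0.99.

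Between ADR+4-OHT and the small outgrowth, 6 of 9 members were higher in every lymphoma, against 21.5% of all genes, and the same 6 did not overlap between the groups, against 16% of all genes. The 6 were H2-Aa, H2-Ab1, H2-DMa, H2-DMb2, H2-Oa and H2-Ob. The median difference of the 9 members was 1.08, against 0.01 over all genes, 0 members passed (limma called 5.04% of genes), and H2-Ab1, H2-DMa and H2-Oa had an unadjusted p under 0.05, against 23.4% of genes. In the big outgrowth, the same 6 genes were higher in every lymphoma (21.1% of genes), and 5 of them, all but H2-DMb2, did not overlap (16%). Ciita was lower there without overlap (19.8%). The median there was 0.92 against -0.01, 0 members passed (4.02% of genes called) and H2-Ab1, H2-DMa, H2-DMb2 and H2-Oa had an unadjusted p under 0.05 (23.4%). Without the 4 arrays in doubt the medians of the 9 members were 0.72 in the small and 0.29 in the big outgrowth comparison, each with 1 lymphoma that holds both conditions. Macrophage markers went the opposite way to the member median in the small outgrowth, with 1 of 7 tested genes above 0 and a median of -1.48. In the big outgrowth 3 of 7 were above 0, with a median of -0.2. Fibroblast markers rose in the big outgrowth, where 4 of 5 passed, with a median of 2.75. In the small outgrowth 0 of 5 passed and 4 were above 0, with a median of 0.53. Of 9 tested B-cell markers, 3 were above 0 in the small and 4 in the big outgrowth, with medians of -0.12 and -0.06. The part of other cells in these differences was not tested. Both comparisons share the ADR+4-OHT arrays and are not independent.

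**Figure D2:**
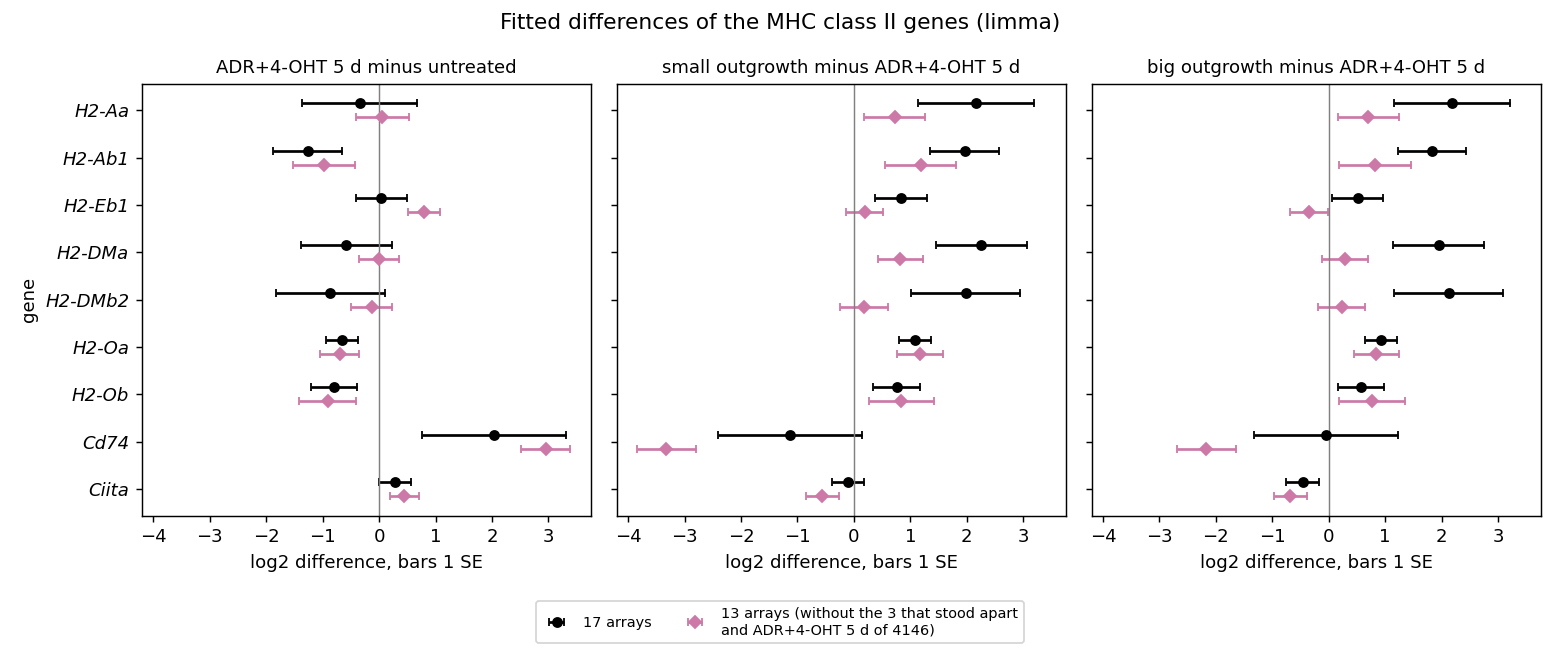
Fitted log2 differences (x axis, bars 1 SE) of the 9 genes (y axis) in 3 comparisons, with black circles for all 17 arrays and pink diamonds for 13 arrays. H2-Oa is at 1.08 and 1.17 in the small outgrowth comparison, H2-DMb2 moves from 1.98 to 0.18, and Cd74 from -1.13 to -3.32.

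In the treatment comparisons the counts were closer to those of all genes. From untreated to ADR+4-OHT, 0 members passed (2.94% of genes called), and H2-Ab1, H2-Oa and H2-Ob were lower in every lymphoma without overlap, against 15.8% of genes. The median member difference was -0.58, and 1 member, H2-Oa, had an unadjusted p under 0.05 (19.2% of genes). Without the 4 arrays in doubt the median was 0.00, and H2-Oa had an unadjusted p of 0.075 by limma. From untreated to ADR, 0 members passed (0% of genes called), the median was 0.50 (0.18 without the 3 arrays apart), and H2-Oa and H2-Ob, lower without overlap (10.4%), had an unadjusted p under 0.05 (11.3%). From ADR to ADR+4-OHT, 0 members passed (0% called), 0 had an unadjusted p under 0.05 (12.5%), and H2-Ab1, H2-DMa and H2-DMb2 were lower in every lymphoma without overlap (13.5%). In 5043 these 3 differences were only -0.08, -0.09 and -0.35.

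Against untreated cells, 0 members passed in the ADR outgrowth (0% called), the small outgrowth (0% called) or the big outgrowth (0.412% called). An unadjusted p under 0.05 was reached by 0 members in each, against 4.49%, 8.3% and 16.3% of genes. H2-Aa, H2-Eb1 and H2-DMa lay above untreated without overlap in the small outgrowth (9.1% of genes), and H2-Aa and H2-Eb1 in the big outgrowth (13.1%). The member medians were 0.87 in the small and 0.56 in the big outgrowth, and 0.26 and 0.22 without the 3 arrays apart. In the small outgrowth H2-Aa then went from 1.82 to 0.84, H2-DMa from 1.67 to 0.91 and H2-Eb1 from 0.87 to 1.1. In the big outgrowth of 4146, H2-Aa lay only 0.014 above untreated. Beside the big outgrowth values, 4 of 5 fibroblast markers passed as higher than untreated, with a median of 3.73, and 7 of 7 macrophage markers were above 0, with a median of 1.34. Against the ADR outgrowth, which 2 lymphomas have, the fitted differences of the small outgrowth had a median of 0.80, and 0.78 without the 3 arrays apart. Cd74 was lower in both lymphomas, with differences of -0.38 and -0.33, while its fitted value over all arrays was 0.48, and without the 3 arrays Cd74 was at -0.36 and H2-DMb2 at -0.13. H2-Aa, H2-Eb1, H2-Oa and H2-Ob did not overlap there (15.8% of genes), 0 members passed (0% called) and 0 had an unadjusted p under 0.05 (13.4%). For the big outgrowth 0 members passed (0.941% called), 0 had an unadjusted p under 0.05 (21.1%), and H2-Oa alone did not overlap (18.6%). The member median there was 0.65. Of 9 tested B-cell markers, 7 were above 0 in the small outgrowth against the ADR outgrowth, with a median of 0.71. In the big outgrowth 8 of 9 were, with a median of 0.8. The part of B-cell content in these differences was not tested. Between big and small cells of the same outgrowth 0 members passed (0% called) and 0 had an unadjusted p under 0.05 (10.4%). Of the 9 members, only Cd74 differed in the same direction in 3 of 3 lymphomas (17.8% of genes), by 1.09 (SE 1.28, limma adjusted p = 0.849) higher in big cells. Macrophage markers were above 0 there in 7 of 7, with a median of 1.18, and fibroblast markers in 5 of 5, with a median of 3.04. The part of other cells in these values was not tested. The interval of the H2-Oa difference between big and small cells ran from -0.78 to 0.47. The difference between the small and the ADR outgrowth was also set against that between ADR+4-OHT and ADR at 5 days. The small outgrowth was sorted by size and the ADR outgrowth was not, so 4-OHT and sorting cannot be told apart there. In that comparison 0 members passed (0% called) and 7 were higher in both lymphomas (27.3%). H2-Ab1 alone had an unadjusted p under 0.05 (9.49%), with a difference of 2.66 (SE 0.92, limma adjusted p = 0.428). Both lymphomas rest there on an array in doubt, and without the 4 arrays H2-Ab1 was at 1.84 and Cd74 went from 0.45 to -2.75 (limma adjusted p = 0.165), with 0 lymphomas holding all 4 conditions.

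Single arrays carried much of the spread. On ADR 5 d of 4936, 4 of 9 members lay at least 1 log2 unit above the median of their lymphoma, against 7.8% of all genes. The same held for 4 members on the small outgrowth of 5043 (4.3% of genes) and 5 on the big outgrowth of 5043 (5.5%). On ADR+4-OHT 5 d of 4146, 5 members lay at least 1 unit below (2.7%), and on the ADR outgrowth of 4936, 3 members did (2.5%).

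**Figure D3:**
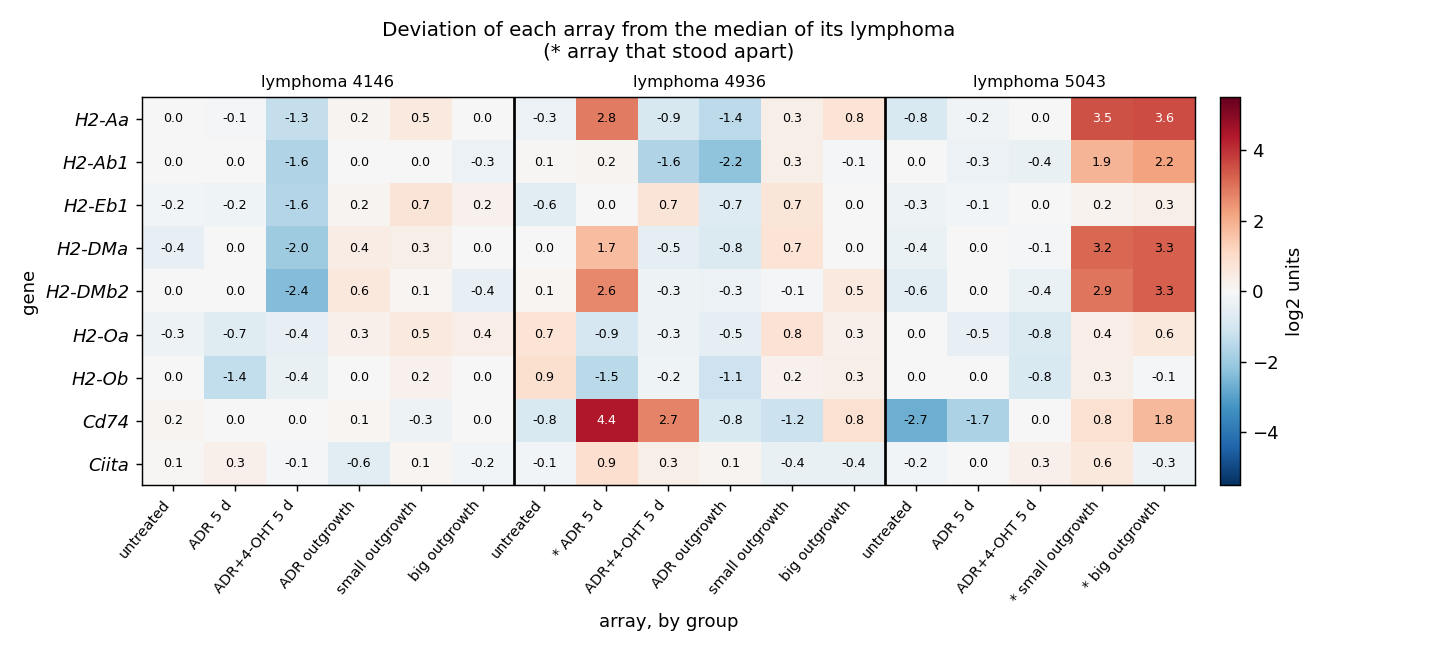
Deviation of each gene (rows) on each array (columns, grouped by lymphoma) from the median of its lymphoma, in log2 units, red above and blue below, with stars on the 3 arrays that stood apart. The starred arrays are red for H2-Aa, H2-DMa and H2-DMb2, and the ADR+4-OHT array of 4146 is blue for the surface chains and H2-DM.

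Some genes varied together across arrays, but they did not fall into sharply separate sets. With lymphoma means removed, H2-Aa, H2-Ab1, H2-DMa and H2-DMb2 correlated at r of 0.81 to 0.95 over 17 arrays. This was 0.64 to 0.83 over the 14 arrays without those apart, and 0.42 to 0.75 over 13. Other pairs lay in those ranges. Over 14 arrays H2-Eb1 with H2-DMa was at 0.79 and H2-Ab1 with H2-Oa at 0.72. Over 13 arrays H2-DMa was at 0.42 with H2-DMb2 and at 0.70 with H2-Oa. H2-Oa and H2-Ob correlated at 0.84 over 17 and 14 arrays and 0.85 over 13. Ciita and H2-Oa ran opposite, at -0.64, -0.69 and -0.72. Cd74 and H2-Aa had r = 0.70 over 17 arrays and 0.05 over 14, so that relation rested on the 3 arrays. The points share lymphomas and processing, and these values are descriptions.

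**Figure D4:**
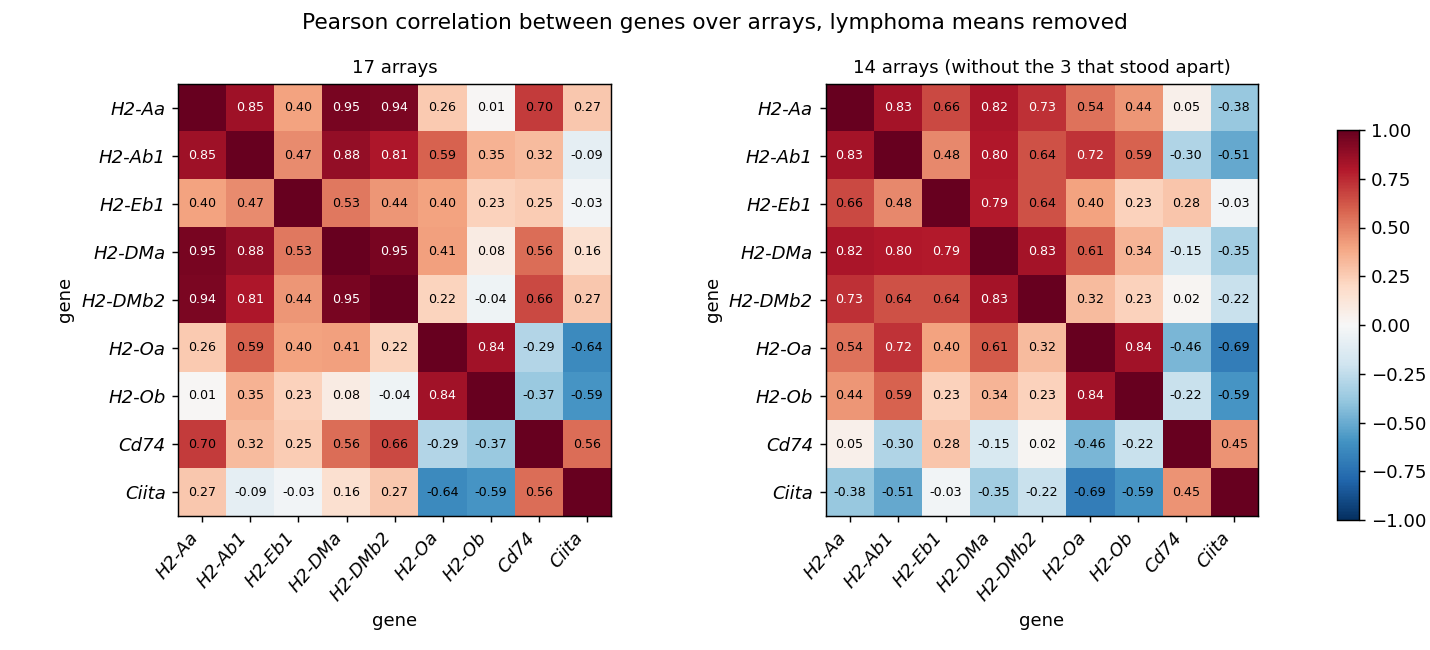
Pearson correlation between the 9 genes (both axes) over 17 arrays (left) and 14 arrays (right), lymphoma means removed. The block of H2-Aa, H2-Ab1, H2-DMa and H2-DMb2 is seen on both sides, as is the H2-Oa and H2-Ob pair at 0.84, while Cd74 with H2-Aa is at 0.70 on the left and 0.05 on the right. H2-Eb1 with H2-DMa is at 0.53 on the left and 0.79 on the right, so the block is not sharply apart.

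Outside the 9 members, the genes most like their standardised mean over 17 arrays were Ang (r = 0.94), Surf1 (0.92), Rab11a (0.92), Nudt2 (0.91) and Ppt2 (0.90). Over 14 arrays the values were 0.85, 0.84, 0.76, 0.72 and 0.71.

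Other genes of the pathway were followed through lists, over all arrays, those in doubt included. Of 7 class II transcription genes tested, 0 passed in any comparison. Rfxank, a subunit of the RFX complex, was lower after ADR+4-OHT than untreated by 0.85 on the log2 scale (difference -0.85, SE 0.32, limma adjusted p = 0.174), in 3 of 3 lymphomas, and Nfyc, a subunit of NF-Y, was at -1.12 (SE 0.39, limma adjusted p = 0.297) in the small against the ADR outgrowth. Of 12 genes that act on Ciita, 0 passed. Prdm1, a repressor of Ciita, was at -1.07 (SE 0.84, limma adjusted p = 0.593) and Irf1, an interferon-response factor, at -0.94 (SE 0.56, limma adjusted p = 0.481) in the small against the ADR outgrowth. The other class II chains tested, H2-Eb2 and H2-Ea, differed by 0.51 (SE 0.37, limma adjusted p = 0.504) and 0.45 (SE 0.14, limma adjusted p = 0.0946) between ADR+4-OHT and untreated, and 0 of 2 passed.

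Of 10 endosomal processing genes, 0 passed, and 8 were above 0 after ADR+4-OHT against untreated, with a median of 0.78. Ctsd, the protease cathepsin D, was at 1.64 (SE 0.47, limma adjusted p = 0.0833) there, and Ctsl, cathepsin L, at 2.23 (SE 0.76, limma adjusted p = 0.353) after ADR alone, each above 0 in 3 of 3 lymphomas. The Ctsl signal peaked at 12.52 on ADR 5 d of 4936 and on the big outgrowth of 5043, both arrays that stood apart. Of 8 costimulation genes, 0 passed. Their median was 1.04 from untreated to ADR+4-OHT and -1.11 from there to the small outgrowth. The member medians were -0.58 and 1.08 over all arrays, and 0.00 and 0.72 without the 4 in doubt. Cd83, a marker of activated antigen-presenting cells, was at 1.99 (SE 0.84, limma adjusted p = 0.222) in the former, and Cd80, a ligand of CD28, at -2.64 (SE 0.69, limma adjusted p = 0.0509) in the latter, each with 1 sign in 3 of 3 lymphomas. Macrophage markers moved the same ways, with 7 of 7 tested genes above 0 and a median of 1.54 in the former and -1.48 in the latter, and their part was not tested. The lowest Cd80 value, 5.06, was on the small outgrowth of 5043, an array that stood apart.

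Of 14 class I presentation genes, 1 passed, in 1 of 12 comparisons. Pdia3, a chaperone of class I loading, was lower in the big outgrowth than after ADR+4-OHT (difference -0.77, SE 0.16, limma adjusted p = 0.0314). Nlrc5, the class I counterpart of Ciita, was at 1.37 (SE 0.57, limma adjusted p = 0.348) from ADR to ADR+4-OHT, above 0 in 3 of 3 lymphomas, and Tap1, a peptide transporter subunit, at 0.88 (SE 0.56, limma adjusted p = 0.536). The lowest values of Nlrc5 and Tap1, 6.28 and 7.68, were both on ADR 5 d of 4936, an array that stood apart.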

How the data were processed

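RNA of each culture was hybridised to Affymetrix arrays, and the deposited values are on a log2 scale, made by the authors with RMA, with Partek also named, per the submitters' processing notes, which give no version. On all 45101 probe sets the median over the arrays of a lymphoma is the same in each of the 3 lymphomas (within 1e-06), so offsets between lymphomas were removed before deposit. Of 18 columns, 1 has no values. Of the probe sets, 34958 have 1 gene symbol in the platform annotation, 932 several and 9211 none. 1 probe set per gene was kept, the one with the highest mean, and a gene was tested if 3 or more arrays reached 4.86, which is the median over every value. limma 3.58.1 (R 4.3.3) fitted group and lymphoma on all 17 arrays (9 residual degrees of freedom), two-sided, with Benjamini-Hochberg adjustment at 0.05. Each lymphoma received both treatments, per the labels' protocols, which pairs the arrays. The values cannot check this, as the removed medians push arrays of a lymphoma apart (median correlation -0.117 for 40 pairs, 0.058 for 80 pairs across lymphomas). The test was tried on simulated data for ADR+4-OHT against untreated over 11897 genes and recovered 14.5% of 1.5-fold, 52.4% of 2-fold and 82% of 4-fold changes, with 4 unchanged genes called. The changed genes were drawn at random from all tested genes, and no simulated array was made to stand apart. Only 17 arrays limit the precision. Alternatives covered the block, the filter, the probe set choice, the normalisation, the variance model, array weights and the arrays in the fit. The members and lists were chosen with earlier results of these data known. Named were the 9 members, list genes that passed (or, where none passed, the 2 with the largest change among 5 comparisons), and the 5 genes most like the member mean. Cd80 is also given in the small outgrowth against ADR+4-OHT, and Lyz2 was added after its values were seen. In the class I list Nlrc5 and Tap1 were named beside Pdia3, although Pdia3 passed. Promoter sequences are from RefSeq.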

Additional observations from a re-analysis of the deposited data

How the results depend on the processing

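Over 32 alternatives the count of members past the threshold stayed at 0 in 370 of 384 recomputed counts and moved in 14. Between the small outgrowth and ADR+4-OHT it was 1 without the replicate block for lymphoma, 1 with a stricter filter (5.63), 1 with arrays centred on their median and 2 with array weights. Leaving out 1 array or 1 lymphoma at a time gave 0 to 2 there, with 2 without either ADR outgrowth array and 1 without untreated 4146, untreated 4936 or ADR 5 d of 4936. Between the big outgrowth and ADR+4-OHT it was 1 without the replicate block and 2 with array weights, and leaving out 1 array or lymphoma gave 0 to 1, with 1 without untreated 4936. The members in these counts were H2-Oa and H2-Ab1. Without the 3 arrays apart and ADR+4-OHT 5 d of 4146, Cd74 was the 1 member called in the small outgrowth against ADR+4-OHT and the 1 called in ADR+4-OHT against untreated. Of 3432 recomputed differences of single members, 3277 kept their sign, and 1 of the 155 that did not was larger than its standard error on both sides, H2-Eb1 in the big outgrowth against ADR+4-OHT, at -0.35 without those 4 arrays. The cause of these changes was not tested. Precision is limited by 2 or 3 arrays per group and by the nearness of Ciita to background. Of simulated 2-fold changes in randomly drawn genes 52.4% were recovered, which cannot be read as the recovery for the members. Between ADR+4-OHT and untreated the SE of the members ran from 0.29 for H2-Oa to 1.28 for Cd74, against a median of 0.22 over all genes.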
